A study of Mus musculus with 16 samples.

Results

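The genes described here are 9 regulators of the hair cell fate, Atoh1, Pou4f3, Gfi1, Lhx3, Barhl1, Insm1, Hes6, Nhlh1 and Srrm4. They were chosen by name, as a list of hair cell transcription factors, from the 36536 gene identifiers counted in each library, and all 9 were found. Srrm4 encodes a splicing factor and is the member that is not a transcription factor. Each was followed through 16 RNA-seq libraries to ask which steps of the hair cell program supporting cells reached within 24 hours of Notch inhibition at birth (P0) and at postnatal day 5 (P5).

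All libraries came from mice carrying the transgene B6;FVB-Tg(Lfng-EGFP)HM340Gsat/Mmucd, a bacterial artificial chromosome in which Lfng regulatory sequence drives green fluorescent protein (GFP). Control and treated groups therefore carried the same transgene. P0 or P5 cochleas spent 24 hours as explants in 10 µM DAPT, which inhibits gamma-secretase and so the cleavage of Notch receptors, or in 0.04% DMSO, its vehicle, and were sorted into GFP+ and GFP- cells. This gave 8 groups of 2 libraries, P0 and P5 by DMSO and DAPT by GFP+ and GFP-. Cells pooled from several cochleas made up each library, cells of low fluorescence were left out, and only the brightest cells were taken as GFP+. The transgene marks most but not all types of supporting cell. The sources used here do not say whether the 2 libraries of a group came from separate cultures, so p-values measure the spread between these libraries, which may be technical.

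Hair cells display Notch ligands to the supporting cells around them. Notch cleavage in the supporting cell switches on repressors of the Hes and Hey families, which hold Atoh1 silent. Atoh1 is a basic helix-loop-helix (bHLH) factor that pairs with E proteins, binds E-boxes and is required for hair cells to form. Pou4f3, Gfi1 and Barhl1 act after Atoh1 in the differentiation and survival of hair cells, and Lhx3 is a LIM homeodomain factor of the same cells. Insm1 is a zinc finger factor needed for outer hair cell identity, Hes6 is a bHLH protein that opposes the Hes1 type of repressor, Nhlh1 is a neural bHLH factor, and Srrm4 drives neural microexon splicing and lowers the activity of the repressor Rest in hair cells.

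The counts were on genome build NCBIM37. Atoh1 (ENSMUSG00000073043) lies on chromosome 6 from 64679140 to 64681227 on the plus strand and consists of 1 exonic block. Insm1 (ENSMUSG00000068154), on chromosome 2 from 146047657 to 146050752 on the plus strand, likewise has 1 exonic block. Lhx3 (ENSMUSG00000026934) lies on chromosome 2 from 26055732 to 26063769 and Barhl1 (ENSMUSG00000026805) on the same chromosome from 28763199 to 28772188, both on the minus strand. Hes6 (ENSMUSG00000067071) and Nhlh1 (ENSMUSG00000051251) lie on the minus strand of chromosome 1, from 93308060 to 93310615 and from 173982423 to 173987704. Gfi1 (ENSMUSG00000029275) lies on chromosome 5 from 108145674 to 108155056, minus strand, and Srrm4 (ENSMUSG00000063919) on the same strand and chromosome from 116889281 to 117041826. Pou4f3 (ENSMUSG00000024497) is on the plus strand of chromosome 18 from 42554251 to 42555747. Exons of Gfi1 overlap those of A430072P03Rik and exons of Srrm4 those of 2410137F16Rik, each on the opposite strand. The sources used here do not say whether strand was used in counting, so the counts of these 2 members are uncertain to that extent.

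Gene counts per library ranged from 13755356 to 45465324. GFP+ libraries held fewer of them (13755356 to 23637236) and more mitochondrial ribosomal RNA (20.2% to 29.8% of gene counts, against at most 0.109% in GFP-). The level of Lfng, the gene behind the transgene, matched the sort label in every library. It was at 178 to 832 CPM (read counts scaled to a common library size) in GFP+ and at 5.46 to 22.4 in GFP-. Of 12 supporting cell markers in P0 DMSO, 9 were higher in GFP+ (edgeR, adjusted p under 0.01, change over 2-fold), against 25.5% of genes tested. By the same limits 1 marker, Epyc, was lower, at 17.65 and 23.84 CPM in GFP+ and at 426 and 1098 in GFP-. The summed level of 16 hair cell markers was 404 to 1056 CPM in GFP+ libraries in DMSO or at P5, 3328 and 3606 in the P0 DAPT GFP+ libraries, and 376 to 449 in GFP-. Myo6 made up most of each GFP- sum, at 234 to 384 CPM, so the sums hide larger differences of single markers. In P5 DMSO 10 of the 16 were higher in GFP+ by the same limits, such as Ptprq at 144 and 193 CPM against 2.72 and 3.87. In that comparison 1 was lower, Calb2, at 2.32 and 2.20 CPM against 8.66 and 8.43. The library numbers in the deposited file names fall into 3 blocks. The first holds all GFP- libraries, another all GFP+ libraries except the P0 DMSO pair, and the last that pair alone. In the P0 GFP+ comparison and in every comparison of GFP+ with GFP-, block and group cannot be told apart, whereas the P5 GFP+ comparison lies within a block.

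Promoters of the members are shown because the protein made by the first gene of the cascade binds E-boxes, spelled CANNTG. Windows of 250 bases before the transcription start were read from RefSeq (GRCm38.p6) for 7 of the 9 members, 11 windows in all; there was none for Pou4f3 or Insm1. Both strands were searched, and capitals mark E-boxes. At least 1 E-box was found in 9 of the 11 windows and in 6 of the 7 members, against 66.2% of all 32851 windows searched. CAGCTG, an E-box spelling, was in windows of 2 members, Barhl1 and Hes6 (13.0% of all windows). CAGATG, another, was in windows of 3 members, Lhx3, Nhlh1 and Srrm4 (14.4%). CACNAG, the N-box bound by Hes proteins, was in windows of Lhx3 and Hes6 (36.7%). A match describes the letters of the window and was not tested as a binding site. Below are the Atoh1 window (chr6:64728875-64729124, plus strand), without an E-box; the upstream Hes6 window (chr1:91414039-91414288, minus), with 3; the Nhlh1 window (chr1:172057597-172057846, minus); and the Srrm4 window (chr5:116591818-116592067, minus). Each is written 5′ to 3′ on the strand of its gene.
Atoh1: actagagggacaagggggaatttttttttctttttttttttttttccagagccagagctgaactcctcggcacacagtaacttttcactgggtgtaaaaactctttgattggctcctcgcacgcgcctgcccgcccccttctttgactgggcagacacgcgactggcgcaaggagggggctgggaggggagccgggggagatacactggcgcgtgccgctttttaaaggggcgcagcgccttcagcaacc
Hes6: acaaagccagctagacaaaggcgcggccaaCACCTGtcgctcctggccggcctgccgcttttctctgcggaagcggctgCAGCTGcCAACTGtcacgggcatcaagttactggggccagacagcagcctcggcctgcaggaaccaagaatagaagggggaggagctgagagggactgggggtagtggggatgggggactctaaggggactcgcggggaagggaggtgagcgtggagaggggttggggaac
Nhlh1: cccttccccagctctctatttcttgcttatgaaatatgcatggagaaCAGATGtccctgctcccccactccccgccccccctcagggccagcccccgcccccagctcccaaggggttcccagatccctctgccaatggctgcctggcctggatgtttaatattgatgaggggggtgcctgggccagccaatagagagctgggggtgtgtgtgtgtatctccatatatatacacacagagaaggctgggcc
Srrm4: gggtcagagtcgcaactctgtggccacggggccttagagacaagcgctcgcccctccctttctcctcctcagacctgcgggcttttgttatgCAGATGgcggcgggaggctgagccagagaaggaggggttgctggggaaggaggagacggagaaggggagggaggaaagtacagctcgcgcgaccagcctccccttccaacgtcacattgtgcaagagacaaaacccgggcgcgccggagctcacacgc

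At P0 all 9 members were higher in GFP+ cells after 24 hours of DAPT than in DMSO, past the limits of the comparison. Of all 20711 genes tested there, 4.20% rose past these limits, an adjusted p under 0.01 and a change over 2-fold. Every P0 DAPT library was above every P0 DMSO library for each of the 9 members, a pattern found in 33.9% of genes tested. Log2 fold changes ran from 4.22 for Hes6 to 7.21 for Insm1, with a median of 4.81 for the members and -0.05 for all genes tested. In bulk RNA, more cells expressing a gene and more RNA per cell cannot be told apart.

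Atoh1, at the head of the cascade, was at 8.28 and 5.29 CPM in the P0 DMSO GFP+ libraries and at 275 and 237 CPM in the DAPT libraries. Both DAPT libraries stood far above both controls. The log2 fold change was 5.19 with a standard error of 0.23 (edgeR quasi-likelihood test, adjusted p = 1.34e-06). The other bHLH members rose with it. Hes6 went from 11.4 and 5.85 to 179 and 153 CPM, a log2 fold change of 4.22 with a standard error of 0.28 (edgeR, adjusted p = 1.1e-05). Nhlh1 went from 4.07 and 1.47 to 60.6 and 50.5 CPM, a log2 fold change of 4.27 with a standard error of 0.38 (edgeR, adjusted p = 6.01e-05). Hes6 was unusual among the members in that its mean level in DMSO was higher in GFP- than in GFP+ cells.

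Factors that act after Atoh1 had also been reached at P0. Pou4f3, a POU homeodomain factor on which hair cell survival depends, was at 2.93 and 0.56 CPM in DMSO and at 99.1 and 79.1 CPM in DAPT (log2 fold change 5.60, standard error 0.48). Gfi1, a zinc finger repressor required by hair cells, went from 2.88 and 0.36 to 43.8 and 41.7 CPM (4.65, standard error 0.57). The DAPT libraries of these genes were close to each other, whereas their DMSO libraries differed 5.24-fold for Pou4f3 and 8.10-fold for Gfi1. Lhx3 went from 2.29 and 1.52 to 53.8 and 57.2 CPM (4.81, standard error 0.25). Barhl1, a homeodomain factor needed to maintain hair cells, went from 1.33 and 0.15 to 41.9 and 33.0 CPM (5.57, standard error 0.55). The 4 adjusted p-values in edgeR lay between 2.65e-06 and 4.75e-04, and the widest standard errors belonged to the genes whose DMSO libraries differed most.

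Insm1 had the largest fold change of the 9 with both controls in the fit. It was at 0.55 and 0.56 CPM in the P0 DMSO GFP+ libraries (12 and 11 counts) and at 66.7 and 103 CPM in DAPT, a log2 fold change of 7.21 with a standard error of 0.32 (edgeR, adjusted p = 1.34e-06). Its DMSO libraries were alike, and its DAPT libraries differed more than those of any other member. Srrm4 had the highest CPM of the 9, from 16.7 and 8.64 in DMSO to 358 and 335 in DAPT (log2 fold change 4.73, standard error 0.28, edgeR, adjusted p = 5.68e-06).

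**Figure D1:**
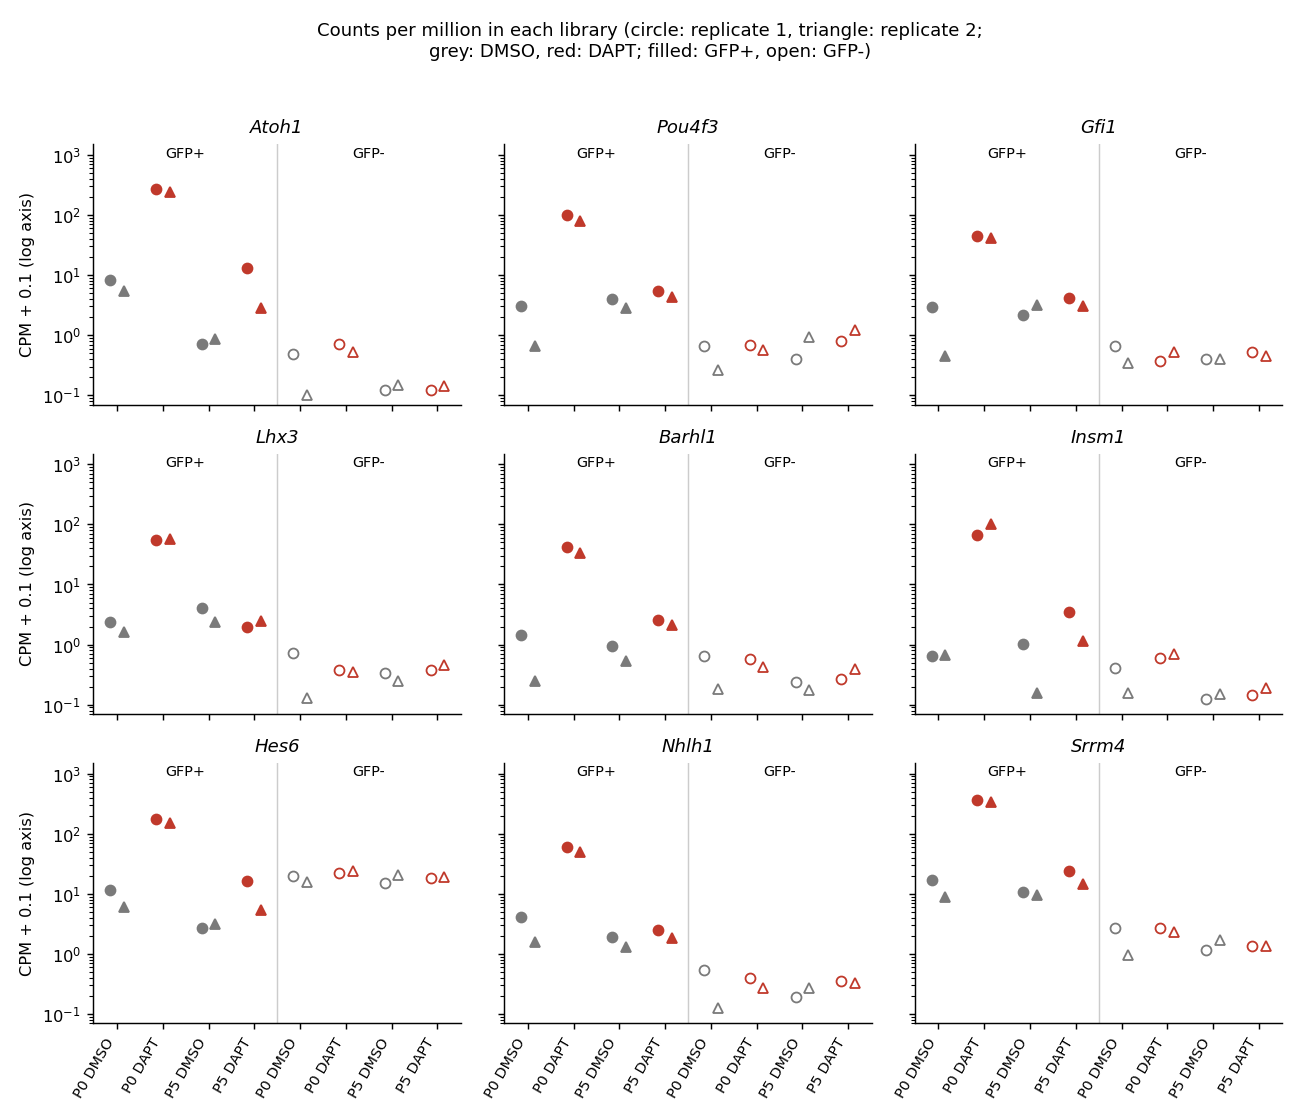
CPM of the 9 members in each of the 16 libraries on a log axis, with 0.1 CPM added so that 0 can be drawn. Circles are replicate 1 and triangles replicate 2, grey is DMSO and red DAPT, filled symbols are GFP+ and open symbols GFP-. In each panel the highest points are the P0 DAPT GFP+ libraries.

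Levels per kilobase of exonic sequence allow for gene length and depend on the annotated lengths, from 1146 bases for Pou4f3 to 7896 for Srrm4. Whether these lengths match the transcripts of these cells was not tested. On this scale Atoh1 had the highest level in P0 DAPT GFP+ cells at 122.6 ± 12.7 CPM per kb (SD, n = 2). It was followed by Hes6 at 91.8 ± 10.1 and Pou4f3 at 77.8 ± 12.3 CPM per kb, whose libraries overlapped. Next came Srrm4 at 43.9 ± 2.10, then Insm1 at 27.4 ± 8.31 and Nhlh1 at 22.6 ± 2.91 CPM per kb, and the libraries of the last 2 overlapped. Lhx3 was at 18.5 ± 0.80, Gfi1 at 13.1 ± 0.46 and Barhl1 at 9.59 ± 1.61 CPM per kb, without overlap between these neighbours. The DMSO order differed: at P0 Hes6, at 4.77 ± 2.17 CPM per kb, and Atoh1, at 3.25 ± 1.01, were highest, and their libraries overlapped.

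The 2 P0 DMSO GFP+ libraries were not alike for these genes. Replicate 1 was above replicate 2 for 8 of the 9 members, against 48.7% of genes tested, and Insm1 was the exception at 0.55 and 0.56 CPM. The ratio of replicate 1 to replicate 2 was 1.50 for Lhx3, 1.57 for Atoh1, 1.93 for Srrm4, 1.95 for Hes6, 2.76 for Nhlh1 and 8.70 for Barhl1. The summed hair cell markers were 693 CPM in replicate 1 and 404 CPM in replicate 2. Among them Myo7a, the myosin of hair cell stereocilia, was at 29.1 and 6.30 CPM, Otof, of the hair cell synapse, at 61.0 and 10.8, and Ptprq, a stereocilia phosphatase, at 128 and 33.0. Their part in the control level of the members was not tested. Without replicate 1 of the P0 DMSO GFP+ group all 9 members still passed, and they did so without each of the other 3 libraries as well. The size of the change followed the control that was left in for 8 of them. The log2 fold changes were 7.88 for Barhl1, 7.30 for Pou4f3, 6.88 for Gfi1, 5.32 for Srrm4, 5.22 for Nhlh1 and 4.82 for Hes6 without replicate 1. Without replicate 2 they were 4.79 for Barhl1, 4.90 for Pou4f3, 3.87 for Gfi1, 4.36 for Srrm4, 3.75 for Nhlh1 and 3.84 for Hes6. Insm1, at 7.22 and 7.24, hardly moved, and without replicate 1 it was below Barhl1 and Pou4f3. The control left in that fit held 3 counts of Barhl1, 7 of Gfi1 and 11 of Pou4f3.

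At P5 none of the 9 members passed the limits in GFP+ cells after DAPT, and neither did any other gene (0% of 18754 tested). Without adjustment, 4 members had a p under 0.05 in edgeR, against 953 genes of all those tested, and 1 member, Atoh1, passed the limits in the DESeq2 Wald test, which called 59 genes. Both DAPT libraries were above both DMSO libraries for 6 members, Atoh1, Pou4f3, Barhl1, Insm1, Hes6 and Srrm4, a pattern found in 16.9% of genes tested. For Gfi1, Lhx3 and Nhlh1 the libraries overlapped. The median log2 fold change was 0.93 for the members and 0.00 for all genes tested.

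Atoh1 was at 0.61 and 0.77 CPM in the P5 DMSO GFP+ libraries (10 and 14 counts) and at 13.2 and 2.78 CPM in the DAPT libraries (169 and 53 counts). Every DAPT library was at least 3.60-fold above every control, yet replicate 1 in DAPT was 4.74-fold above replicate 2. The log2 fold change was 3.51 with a standard error of 0.85 (edgeR, adjusted p = 0.716, unadjusted p = 0.00549 in the same model). It was 1.98 without replicate 1 of the DAPT group and 4.24 without replicate 2 (edgeR, adjusted p = 1 and 0.0598). The DESeq2 Wald test gave 3.54 (adjusted p = 0.00853), and edgeR without a filter on low counts gave 3.50 (adjusted p = 4.64e-06). Over all alternatives the adjusted p of Atoh1 ran from 4.64e-06 to 1.

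Hes6 and Insm1 varied in the same way between the 2 P5 DAPT libraries. Hes6 was at 2.63 and 3.03 CPM in DMSO and at 16.5 and 5.24 CPM in DAPT (log2 fold change 1.94, standard error 0.60, edgeR, adjusted p = 0.883). Insm1 was at 0.92 and 0.06 CPM in DMSO (15 counts and 1 count) and at 3.35 and 1.05 CPM in DAPT (2.17, standard error 1.23, edgeR, adjusted p = 0.977). Leaving out a library moved the log2 value of Hes6 between 0.87, without replicate 1 in DAPT, and 2.55, without replicate 2 in DAPT. That of Insm1 moved between 1.09, without replicate 1 in DAPT, and 5.14, without replicate 1 in DMSO. The margin between the lower DAPT and the higher DMSO library was 1.73-fold for Hes6 and 1.14-fold for Insm1. Without a filter on low counts Hes6 passed as well (log2 fold change 1.93, edgeR, adjusted p = 0.00763). Srrm4 was at 10.7 and 9.64 CPM in DMSO and at 24.4 and 14.4 CPM in DAPT (0.93, standard error 0.34, edgeR, adjusted p = 0.952).

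Of Pou4f3, Gfi1, Lhx3 and Barhl1, the last had the largest log2 fold change at P5 (1.80, standard error 0.71, edgeR, adjusted p = 0.968). Barhl1 went from 0.86 and 0.44 CPM in DMSO (14 and 8 counts) to 2.49 and 2.04 CPM in DAPT (32 and 39 counts). Pou4f3 was at 3.85 and 2.70 CPM in DMSO and at 5.30 and 4.24 CPM in DAPT (0.54, standard error 0.45). These libraries did not overlap, but the lower DAPT library of Pou4f3 was only 1.10-fold above the higher control. Gfi1 was at 2.08 and 3.08 CPM in DMSO and at 4.13 and 2.93 CPM in DAPT (0.45, standard error 0.51). Nhlh1 was at 1.83 and 1.21 CPM in DMSO and at 2.41 and 1.73 CPM in DAPT (0.44, standard error 0.62). Lhx3 had the sole negative value, with 3.91 and 2.26 CPM in DMSO and 1.87 and 2.36 CPM in DAPT (-0.54, standard error 0.55). For Pou4f3, Gfi1, Nhlh1 and Lhx3 the adjusted p in edgeR was at least 0.995.

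**Figure D2:**
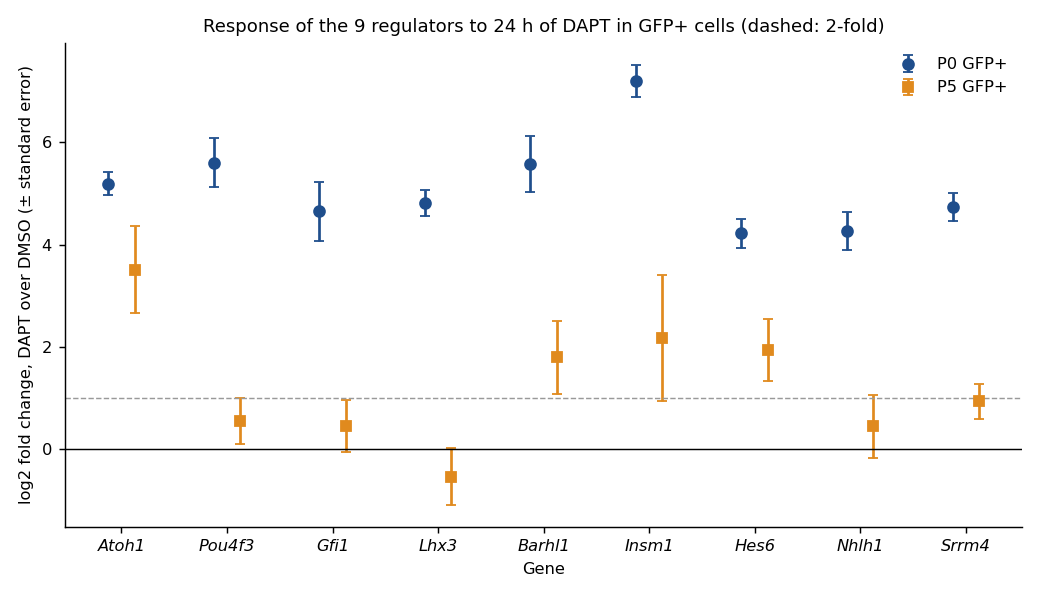
Log2 fold change of each member, DAPT over DMSO in GFP+ cells, with bars of 1 standard error from the edgeR fit, at P0 (blue circles) and P5 (orange squares). The P0 values lie between 4.22 for Hes6 and 7.21 for Insm1, and the P5 values between -0.54 for Lhx3 and 3.51 for Atoh1.

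Replicate 1 of the P5 DAPT GFP+ group was above replicate 2 for 8 of the 9 members, all but Lhx3, against 48.2% of genes tested. The ratio of replicate 1 to replicate 2 was 4.74 for Atoh1, 3.20 for Insm1, 3.15 for Hes6 and 1.70 for Srrm4, and between 1.22 and 1.41 for Barhl1, Pou4f3, Nhlh1 and Gfi1. The summed hair cell markers were at 985 CPM in replicate 1 and 1056 CPM in replicate 2. Most of each sum came from Myo6 (417 and 441 CPM) and Ptprq (228 and 255 CPM). Single markers went both ways. Myo7a (26.4 and 15.3 CPM) and Cdh23 (27.3 and 21.4 CPM) were higher in replicate 1, as 8 members were. A summed level of 5 mesenchymal markers was 197 CPM in replicate 1 and 1031 CPM in replicate 2, and in the P5 DMSO GFP+ libraries it was 1017 and 170 CPM. In the GFP- libraries the same list summed to at least 7371 CPM. The part of mesenchymal cells in the members' values was not tested.

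Relative to the mean of the P0 DAPT GFP+ libraries, the P5 DAPT GFP+ libraries stood at 5.14% and 1.09% for Atoh1. Over the 9 members the highest P5 DAPT value on this scale was 9.95%, in replicate 1 of Hes6. The P5 DAPT level of Atoh1 was 7.97 ± 7.35 CPM and the P0 DMSO level 6.78 ± 2.12 CPM (SD, n = 2), so that DAPT at P5 gave values on both sides of the P0 control. Barhl1 at P5 in DAPT, at 6.66% and 5.46%, lay above its P0 controls at 3.54% and 0.41%. Nhlh1 at P5 in DAPT, at 4.35% and 3.11%, lay between its P0 controls at 7.33% and 2.65%.

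**Figure D3:**
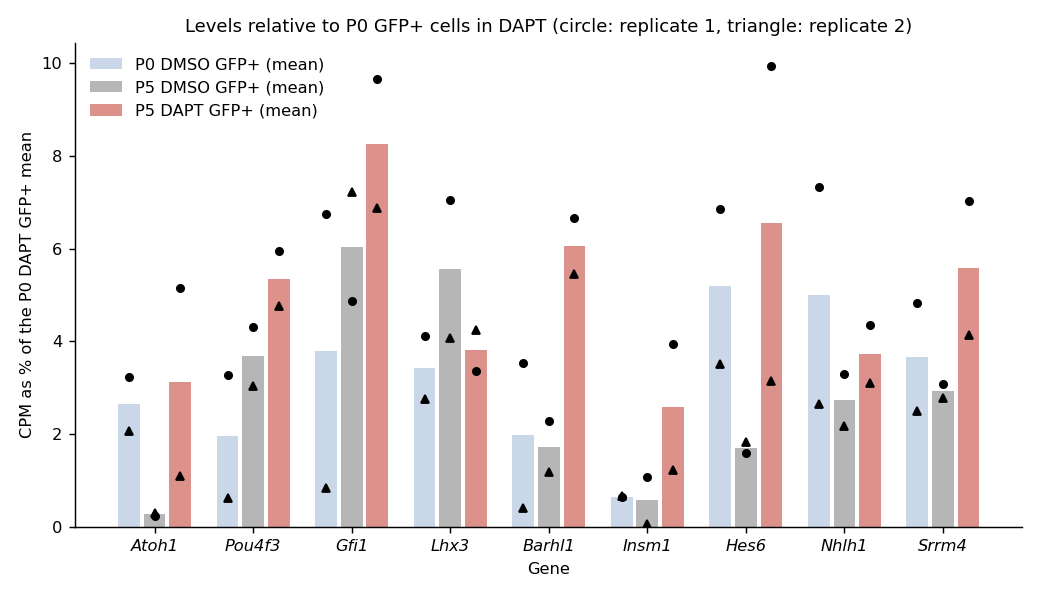
Level of each member as a percentage of its mean CPM in the P0 DAPT GFP+ libraries. Bars are means of P0 DMSO, P5 DMSO and P5 DAPT GFP+ libraries, circles replicate 1 and triangles replicate 2. All points are below 10%, and the Atoh1 bar of P5 DMSO is at 0.27%.

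The difference between the ages was tested directly as an interaction in a fit of the 4 GFP+ groups. The response at P5 was smaller than at P0 past the limits for 3 members, against 0.712% of 22199 genes. These were Lhx3 (difference of log2 fold changes -5.35, standard error 0.48, edgeR, adjusted p = 8.34e-04), Pou4f3 (-5.07, standard error 0.74, adjusted p = 0.00624) and Srrm4 (-3.81, standard error 0.44, adjusted p = 0.00288). Nhlh1 (-3.84, edgeR, adjusted p = 0.0117), Gfi1 (-4.22, adjusted p = 0.035) and Insm1 (-5.05, adjusted p = 0.044) did not pass, nor did Barhl1 (-3.78, adjusted p = 0.0609) and Hes6 (-2.31, adjusted p = 0.0917). Atoh1 had the smallest difference, -1.73 with a standard error of 0.93 (edgeR, adjusted p = 0.315).

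In the interaction Lhx3 and Srrm4 passed with each of the 8 GFP+ libraries left out in turn. Pou4f3 kept its size but did not pass without replicate 1 of the P0 DAPT GFP+ group (-4.94, edgeR, adjusted p = 0.0186) or without replicate 2 (-5.24, adjusted p = 0.011). Other members gained a call without 1 library. Atoh1 (-3.25) and Hes6 (-3.38) did so without replicate 1 of the P5 DAPT GFP+ group. Gfi1 (-6.43), Barhl1 (-6.06) and Nhlh1 (-4.79) did so without replicate 1 of the P0 DMSO GFP+ group. Insm1 passed without replicate 2 of the P5 DMSO GFP+ group (-6.04, edgeR, adjusted p = 0.00671), whereas without replicate 1 of that group its difference was -2.15 with a standard error of 2.38 (adjusted p = 0.637). With the replicate number as a block 4 members passed, with Nhlh1 added (edgeR, adjusted p = 0.0062). In that fit 123 of 22199 genes passed in the same direction.

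Genes upstream and around the cascade showed how far the Notch step itself had moved. Of 6 Notch target repressors that hold Atoh1 down or report Notch activity (Hes5, Hes1, Hey1, Hey2, Heyl, Nrarp), 6 fell at P0 past the limits, with a median log2 fold change of -3.76 and 4.17% of all genes falling. Hes5, the main Notch effector of supporting cells, went from 112 and 84.7 CPM to 0.32 and 0.36 CPM. At P5 none of the 6 passed in edgeR, 6 had an unadjusted p under 0.05 in it, 3 passed in DESeq2, and the median was -1.80. Hes5 at P5 was at 7.64 and 7.16 CPM in DMSO and at 0.39 and 0 CPM in DAPT. Heyl was at 227 and 323 CPM in DMSO and at 69.4 and 76.5 CPM in DAPT at P5, so the treated libraries were below both controls for these repressors.

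Among the 5 Notch ligands, 3 rose and 1 fell at P0. Dll1 went from 2.61 and 2.03 to 43.2 and 37.7 CPM, Dll3 from 0.96 and 1.02 to 45.7 and 39.5 CPM and Jag2 from 7.27 and 2.75 to 179 and 155 CPM. These are ligands that differentiating hair cells and neural precursors make, and Jag1, the ligand of supporting cells, fell from 1211 and 1100 to 307 and 396 CPM. At P5 Dll1 was at 0.55 and 0.66 CPM in DMSO and at 5.22 and 2.93 CPM in DAPT (log2 fold change 2.73). No ligand passed at P5 in edgeR or DESeq2, and 3 had an unadjusted p under 0.05.

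Partners and antagonists of Atoh1 were read from 2 lists. None of 3 E protein genes (Tcf3, Tcf4, Tcf12) passed at P0, with 2 at an unadjusted p under 0.05 in edgeR and none passing in DESeq2. Among all genes tested in edgeR, 8343 of 20711 had such a p at P0 and 953 of 18754 at P5. Of 4 Id genes, whose products sequester E proteins, Id1 fell from 90.0 and 95.3 to 46.4 and 46.0 CPM and Id3 from 188 and 138 to 57.5 and 42.9 CPM. None of the genes on these 2 lists passed at P5 in edgeR or DESeq2, and at P5 1 Id gene had an unadjusted p under 0.05.

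Of 13 other transcription factor genes of hair cells or close relatives of the members, 9 had enough counts to be tested at P0 and 2 rose. Rfx3, which acts in hair cell survival, went from 39.0 and 48.1 to 108 and 115 CPM, and Lmo1, a LIM-only factor, from 2.24 and 0.92 to 17.9 and 20.8 CPM. Among genes tied to Srrm4 and Rest, 2 of 5 tested rose at P0. Srrm3, the closest relative of Srrm4, went from 1.51 and 1.37 to 6.08 and 8.37 CPM, and Ptbp1, a splicing repressor, from 355 and 307 to 1057 and 975 CPM. Rest itself was at 126 and 127 CPM in DMSO and at 65.7 and 79.0 CPM in DAPT, a change short of 2-fold (log2 fold change -0.84). Of 8 proneural bHLH genes other than Atoh1, 5 were tested at P0, Neurod6 rose from 1.46 and 0.92 to 18.2 and 18.2 CPM and Neurog2 fell from 1.69 and 1.07 CPM to 0 counts in both libraries. At P5 no gene of these 3 lists passed in edgeR or DESeq2, and 1, a hair cell factor, had an unadjusted p under 0.05.

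**Figure D4:**
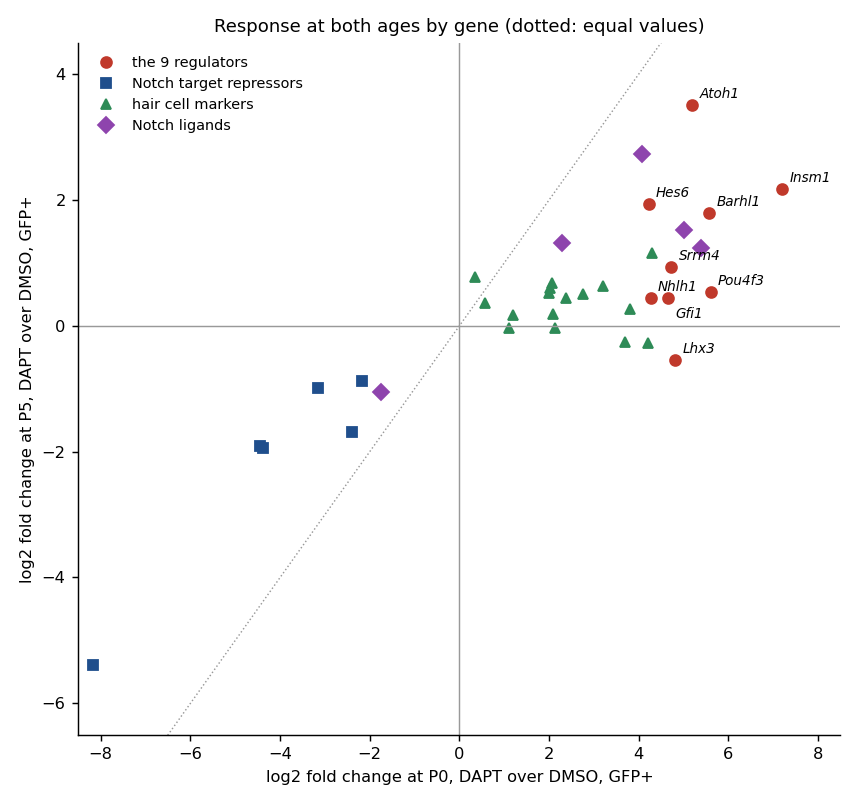
Log2 fold change in GFP+ cells, DAPT over DMSO, at P0 (x axis) and P5 (y axis) for the 9 members, 6 Notch target repressors, 16 hair cell markers and 5 Notch ligands, each point a gene. The repressors are below 0 at both ages, and the members lie far right of the dotted line of equal values, with Atoh1 nearest to it.

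Markers of other cells were read beside the members. Of 16 hair cell markers, 10 rose at P0 with a median log2 fold change of 2.11, among them Myo7a from 29.1 and 6.30 to 264 and 248 CPM and Myo6 from 320 and 281 to 1682 and 1516 CPM. At P5 none passed in edgeR or DESeq2, 3 had an unadjusted p under 0.05, and the median was 0.40, with summed levels of 745 and 842 CPM in DMSO and 985 and 1056 CPM in DAPT. Of 12 neuronal markers, 7 were tested at P0 and 2 rose, Nefm and Snap25. The neuronal list summed to 163 and 165 CPM in P0 DMSO and to 287 and 267 CPM in P0 DAPT GFP+ libraries. The neuroblast factor Neurog1 was at 0 counts in all GFP+ libraries. It only reached 0.13 CPM in GFP- libraries, so it does not set the fractions apart. Insm1, Nhlh1, Hes6 and Srrm4 are also expressed by neurons, and the part of neurons in their rise was not tested. Of 12 supporting cell markers, 4 fell at P0 (Lfng, Hes5, Jag1, Notch1), and their summed level went from 6612 and 5792 to 3533 and 3675 CPM. At P5 none of the supporting cell markers passed in edgeR, 6 had an unadjusted p under 0.05 and 2 passed in DESeq2. Of the remaining lists, those of immune cells and the stria each had 1 gene that fell at P0 (Ptprc and Kcnj10). Kcnj10 was higher in GFP+ than in GFP- cells in P0 DMSO, at 157 and 152 against 27.9 and 33.0 CPM, so it does not mark strial cells here. In the Schwann cell and mesenchyme lists none passed in edgeR or DESeq2, with 1 and 0 genes at an unadjusted p under 0.05.

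In GFP- cells the members other than Hes6 and Srrm4 were at 1.12 CPM or less in every library. At P0 none of the 9 passed with DAPT, and none of 17357 genes did (0%), none of the members had an unadjusted p under 0.05 in edgeR, and DESeq2 called no member. At P5 5 members had enough counts to be tested and none passed (0% of 17286 genes), again with 0 at an unadjusted p under 0.05 and 0 in DESeq2. Atoh1 in GFP- libraries was at 0.39 and 0 CPM in P0 DMSO, at 0.62 and 0.42 CPM in P0 DAPT and at 0.02 to 0.05 CPM in the P5 libraries, the last from 1 or 2 counts each. Hes6 was at 15.1 to 24.0 CPM in all 8 GFP- libraries, and Srrm4 at 0.85 to 2.65 CPM. Both DAPT libraries lay above both DMSO libraries for Atoh1, Insm1 and Hes6 at P0, 3 of 9 members against 19.0% of genes tested, and for Gfi1, Lhx3, Barhl1 and Nhlh1 at P5, 4 of 9 against 8.49%. Apart from Hes6 these members were under 1 CPM in the libraries concerned. The 8.49% is over genes with enough counts to be tested, and only 5 of the 9 members were among them. Hes6 at P0 was at 19.9 and 15.9 CPM in DMSO and at 22.0 and 24.0 CPM in DAPT (log2 fold change 0.34, edgeR, adjusted p = 1).

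Comparison of GFP+ with GFP- cells placed the members in the sort. Of 16 hair cell markers in P0 DMSO, 6 were higher and 0 lower in GFP+ past the limits, against 25.5% of genes higher. In P5 DMSO 10 of these markers were higher and 1 was lower, against 18.4% and 15.5% of genes. The part of hair cells in the members' values was not tested. In P0 DMSO none of the 9 members passed, against 25.5% of genes that were higher in GFP+. An unadjusted p under 0.05 in edgeR was found for 3 members and for 14123 of all 21779 genes tested. DESeq2 called 3 members as higher, and 6225 genes in all. In P0 DAPT all 9 were higher in GFP+, against 25.5% of genes, by log2 values from 2.98 for Hes6 to 9.06 for Atoh1. In P5 DMSO 5 of 8 tested members were higher in GFP+ (Atoh1, Gfi1, Lhx3, Nhlh1, Srrm4), against 18.4% of genes, and Hes6 was lower (log2 -2.50, edgeR, adjusted p = 0.0025), against 15.5%. In P5 DAPT 8 of 9 were higher, against 19.8%, and Hes6 did not pass (log2 -0.63, edgeR, adjusted p = 0.326), although it was lower without replicate 1 of the GFP+ group (-1.72, adjusted p = 0.00614). Without either GFP- library at P5 no member passed as higher, in DMSO or in DAPT, and calls over all genes fell as well, in DAPT from 6995 to 1684 without replicate 1 and to 1209 without replicate 2. The log2 values stayed near their size in those DAPT fits, at 7.42 and 8.20 for Atoh1 against 7.82, and at 4.02 and 4.03 for Srrm4 against 4.07. Leaving out replicate 1 or 2 of the GFP+ fraction in P5 DAPT gave log2 values of 2.33 and 2.66 for Pou4f3, and of 3.24 and 3.54 for Barhl1. In the P0 DMSO comparison the log2 value of Atoh1 was 10.5 without replicate 1 of the GFP- group and 4.17 without replicate 2. That of Srrm4 was 3.94 and 2.38 in the same fits.

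Age alone was compared in DMSO. Among the 9 members Atoh1 was lower at P5 than at P0 in GFP+ cells, at 0.61 and 0.77 against 8.28 and 5.29 CPM (log2 -3.32, standard error 0.55, edgeR, adjusted p = 0.00893), with 1.30% of genes lower. It did not pass without replicate 1 (edgeR, adjusted p = 0.0761) or replicate 2 (adjusted p = 0.0122) of the P0 DMSO GFP+ group, nor with all 8 groups in the fit (adjusted p = 0.0208). Hes6 was at 11.4 and 5.85 CPM at P0 and at 2.63 and 3.03 CPM at P5, without overlap and short of the limits (log2 -1.65, edgeR, adjusted p = 0.0571). The library blocks differ between these ages. In DMSO GFP- cells 4 members could be tested and none passed (0% of 17423 genes), with 0 at an unadjusted p under 0.05 in edgeR and 0 in DESeq2.

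Over the 16 libraries the members other than Hes6 followed each other closely, with Pearson's r of log2(CPM + 1) from 0.927 for Insm1 and Srrm4 to 0.990 for Pou4f3 and Gfi1. Hes6 had values from 0.519 with Srrm4 to 0.765 with Insm1, and it is the member with the highest level per kb in GFP- cells. The libraries share 2 high points, the P0 DAPT GFP+ replicates, so r describes mainly these. Among 11745 protein-coding genes reaching 10 CPM in a group, those most like Atoh1 were Chrng (r = 0.988), a subunit of the acetylcholine receptor, Grp (0.984), a neuropeptide, and Scn11a (0.984), a sodium channel. Lhx3 was most like Grxcr1 (0.983), a hair bundle gene, Mogat1 and Trim62, Insm1 was most like Igll1 (0.982), Tdrd3 and Dll3, and Srrm4 was most like Fam70b (0.994), Rasd2 and Trim62. Pou4f3 was nearest to Rab3ip (0.979), Gfi1 to Mob3b (0.983), Barhl1 to Dlk2 (0.983), Nhlh1 to Runx1t1 (0.990) and Hes6 to Slc8a2 (0.972).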

How the data were processed

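The authors sorted small numbers of cells per library, amplified the complementary DNA before library preparation, aligned paired reads to mm9 (NCBIM37) with TopHat (version 1.4.0 per the labels' processing notes) and deposited a file of raw read counts for each library, listed by Ensembl gene. The processing notes name HTSeq and DESeq 1.9.2, and the counting settings, strand included, are not given in the sources used here. Amplification may change the spread between replicates and the share of reads outside genes, which was 50.1% to 62.0% in GFP+ and 6.64% to 13.7% in GFP- libraries. Lines for reads outside genes entered no test.

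Groups were read from the sample titles. Each comparison used only its own groups in edgeR 4.0.16 (R 4.3.3): filterByExpr (minimum count 10, minimum total 15), TMM normalisation, glmQLFit and glmQLFTest without a replicate block, and Benjamini-Hochberg adjustment over all genes tested. A gene passed the limits at an adjusted p under 0.01 and a change over 2-fold, the limits used by the study for cultured samples. The standard error is the log2 fold change divided by the square root of F. CPM were scaled with TMM factors over 24731 genes in all 16 libraries, and levels per kb used GENCODE M1 exonic lengths. Medians of lists are over the genes tested. DESeq2 1.42.0 and the other alternatives are described with their effects at the end.

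The 9 members, the marker and pathway lists and the tests were chosen with earlier results of these data known, and another pathway list is not reported here. All 9 members are named; from lists, genes are named where 5 or fewer passed or as up to 4 examples. The 3 most similar protein-coding genes of each member were found by Pearson's r. Replicates within a group were distinct libraries. Depth is the count total given with the results. Intervals for counting error alone were not used, since the replicates show a wider spread.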

Additional observations from a re-analysis of the deposited data

Results flagged for a closer look

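The response to DAPT in GFP+ cells differed between P0 and P5 by the interaction test for 3 members. The difference of log2 fold changes, P5 minus P0, was -5.35 for Lhx3, -5.07 for Pou4f3 and -3.81 for Srrm4. At P5 in DAPT no library of these genes exceeded 7.04% of the mean in P0 DAPT GFP+ cells, a value reached by replicate 1 of Srrm4. The P0 DMSO GFP+ libraries carry a separate block of library numbers, and block and group cannot be told apart there.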

How the results depend on the processing

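Each comparison was repeated with size factors from DESeq2, with genes of low counts kept in, with the Wald test of DESeq2, with all 8 groups fitted together, with a replicate block, with 0.05 as the limit on the adjusted p, with libraries thinned to 13755356 gene counts, without mitochondrially encoded genes and without each library in turn. All 9 members passed in P0 GFP+ and in P0 DAPT GFP+ against GFP- under each of them. Of 1082 values for single members under an alternative, 950 kept direction and side of the limits, 51 newly passed, 53 no longer passed and 28 changed sign, none of the last from a value that had passed. Leaving out a library leaves its group with 1 sample that is assumed to vary like the others. Depth limits Atoh1, Barhl1 and Insm1 at P5, which rested on at most 15 counts in each DMSO GFP+ library. The causes of the changes were not tested.

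Members passing at P5 GFP+ numbered 2 without a filter and 1 in DESeq2. For the interaction they numbered 8 without a filter, 6 in DESeq2 and 6 at the limit of 0.05, and 2 to 6 with a library left out. For P0 DMSO GFP+ against GFP-, where none passed, they numbered 1 with DESeq2 size factors, 2 without a filter, 3 in DESeq2, 4 with all groups, 2 with the replicate block, 3 at 0.05, 1 after thinning, 1 without mitochondrial genes and 0 to 4 with a library left out. With the replicate block 3 members passed in P5 DMSO (0 to 7 with a library left out) and 5 in P5 DAPT (0 to 4) for GFP+ against GFP-. Atoh1 in DMSO GFP+ by age was lost with all 8 groups (0 members, and 0 to 1 with a library left out).

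Among all genes, 1733 passed in P0 GFP+, 1089 with all 8 groups, 3761 at 0.05 and 1338 to 1764 with a library left out. At P5 GFP+ 0 passed, 108 without a filter, 59 in DESeq2 and 0 to 2 with a library left out. For the interaction 245 passed, 906 without a filter, 861 in DESeq2, 758 at 0.05 and 59 to 268 with a library left out. In GFP- cells DESeq2 called 28 genes at P0, 8 at P5 and 1 by age, and leaving out a library gave 0 to 549, 0 to 11 and 0 to 492. For GFP+ against GFP- a library left out gave 0 to 9170 in P0 DMSO, 2136 to 7921 in P5 DMSO and 1209 to 6283 in P5 DAPT. For DMSO GFP+ by age 691 passed, 1961 without a filter, 1620 in DESeq2, 1050 with the replicate block, 2003 at 0.05 and 471 to 1513 with a library left out.

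Log2 values that changed sign with a library left out, none of them past the limits, had these ranges. For DAPT in P0 GFP- they were -0.10 to 1.62 for Pou4f3, -0.72 to 0.43 for Gfi1, -1.28 to 3.07 for Lhx3, -0.47 to 2.17 for Barhl1, -0.89 to 2.93 for Nhlh1 and -0.078 to 1.48 for Srrm4. For DAPT in P5 GFP- they were -0.11 to 0.29 for Hes6 and -0.34 to 0.22 for Srrm4. For P0 DMSO GFP+ against GFP- they were -0.13 to 2.91 for Gfi1 and -0.97 to 3.16 for Barhl1. For DMSO GFP+ by age they were -0.22 to 2.80 for Gfi1, -1.08 to 2.00 for Barhl1, -3.19 to 0.69 for Insm1, -1.47 to 0.011 for Nhlh1 and -0.77 to 0.20 for Srrm4. For DMSO GFP- by age they were -0.29 to 1.71 for Pou4f3, -0.93 to 0.25 for Gfi1, -0.27 to 0.12 for Hes6 and -0.96 to 0.62 for Srrm4. The replicate block turned Lhx3 to 0.080 and Nhlh1 to 0.30 for DAPT in P0 GFP- and Barhl1 to 0.24 in DMSO GFP+ by age, and thinning turned Srrm4 to 0.0056 for DAPT in P5 GFP-.

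The replicate numbers were not taken as pairs. Deviations of same-numbered GFP+ libraries from their group means correlated at -0.251 to 0.143 and those of GFP- libraries at 0.108 to 0.726, and no source used here says that a number marks shared animals. The block moved the interaction from 3 to 4 members and otherwise only the counts given above.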
